A study of Mus musculus with 9 samples.

Results

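Fibroblasts given extra p21 were set directly against fibroblasts given extra p16. The comparison uses 6 of the 9 RNA-seq libraries, 3 with p21 and 3 with p16, matched by the replicate number in their labels. The other 3 libraries, from cells that received an empty vector, served as a common reference. All cells were mouse embryonic fibroblasts (MEFs, connective tissue cells grown out of mouse embryos) of strain C57BL/6. Every group was infected with a lentivirus: an empty control virus (EV), a virus for p21 overexpression (p21OE) or a virus for p16 overexpression (p16OE). RNA was taken 4 days after overexpression began, and the cells of all 3 groups are described as non-senescent. The promoter in the virus, the share of cells infected and whether the replicates were separate cultures or embryos are not given in the sources used here. The p-values measure the spread between these libraries, which may be technical between replicates 1 and 2. Replicate 3 differed from both in every group in the level of Xist, given at the end, and so was not a repeat of the same cells. Nor is a batch named. A batch of the p16 libraries, if there was one, cannot be told apart from the p16 group.

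Both proteins are brakes on the cell cycle. p21, encoded by Cdkn1a and induced by p53, binds cyclin-CDK complexes, above all those of CDK2, and also binds the replication clamp PCNA. p16, encoded by Cdkn2a, binds CDK4 and CDK6 and keeps the D-type cyclins off them. Either way the RB family of pocket proteins stays active, E2F factors are held in check and genes for DNA replication and mitosis fall. Many mitotic genes are repressed by pocket protein complexes through a promoter element called CHR, many replication genes through E2F sites, and heat shock genes are driven by HSF1 through heat shock elements.

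Promoters of 7 genes that hold a motif of their group are shown first: 3 heat shock genes, 2 mitotic genes and 2 genes of the MCM helicase. They are RefSeq sequences on GRCm38.p6, on the gene's own strand, each ending just before the gene's annotated first exon. Capitals mark the motif searched on both strands: a heat shock element of 2 units (GAANNTTC or TTCNNGAA) in the Hsp genes, the CHR (TTTGAA) in Cdc20 and Top2a, and an E2F site (TTTCCCGC, TTTCGCGC, TTTGCCGC or TTTGGCGC) in Mcm5 and Mcm6.
Hspa1a, chr17:34972157-34972406, minus strand: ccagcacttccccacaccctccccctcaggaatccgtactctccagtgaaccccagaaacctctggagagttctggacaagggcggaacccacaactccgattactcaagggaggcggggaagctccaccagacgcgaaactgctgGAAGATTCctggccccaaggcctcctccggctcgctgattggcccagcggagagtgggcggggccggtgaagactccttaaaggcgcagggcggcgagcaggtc
Hspa1b, chr17:34959239-34959488, minus strand: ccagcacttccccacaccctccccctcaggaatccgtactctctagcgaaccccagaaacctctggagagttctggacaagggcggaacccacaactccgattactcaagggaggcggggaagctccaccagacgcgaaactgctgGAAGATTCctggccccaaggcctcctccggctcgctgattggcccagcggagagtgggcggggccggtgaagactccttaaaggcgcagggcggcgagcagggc
Hspb1, chr5:135887669-135887918, plus strand: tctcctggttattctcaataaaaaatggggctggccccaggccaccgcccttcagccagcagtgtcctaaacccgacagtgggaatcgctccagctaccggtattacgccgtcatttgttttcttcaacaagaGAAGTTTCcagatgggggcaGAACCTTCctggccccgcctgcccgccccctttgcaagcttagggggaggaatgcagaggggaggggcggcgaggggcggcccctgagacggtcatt
Cdc20, chr4:118437353-118437593, minus strand: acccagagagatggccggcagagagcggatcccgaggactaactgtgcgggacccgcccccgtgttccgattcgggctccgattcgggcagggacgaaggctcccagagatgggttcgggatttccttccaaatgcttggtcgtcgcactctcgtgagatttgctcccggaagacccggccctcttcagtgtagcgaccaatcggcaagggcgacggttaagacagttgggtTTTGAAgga
Top2a, chr11:99024190-99024439, minus strand: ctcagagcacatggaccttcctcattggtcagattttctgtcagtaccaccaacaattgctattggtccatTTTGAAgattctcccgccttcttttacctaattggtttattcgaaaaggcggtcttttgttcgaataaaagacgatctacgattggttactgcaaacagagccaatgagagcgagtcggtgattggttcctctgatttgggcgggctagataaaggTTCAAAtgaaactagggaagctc
Mcm5, chr8:75109259-75109508, plus strand: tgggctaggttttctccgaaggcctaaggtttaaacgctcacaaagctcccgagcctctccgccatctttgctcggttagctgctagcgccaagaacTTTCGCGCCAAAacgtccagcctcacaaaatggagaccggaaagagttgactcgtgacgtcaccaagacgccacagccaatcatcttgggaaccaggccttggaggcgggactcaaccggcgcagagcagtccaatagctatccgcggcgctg
Mcm6, chr1:128359706-128359955, minus strand: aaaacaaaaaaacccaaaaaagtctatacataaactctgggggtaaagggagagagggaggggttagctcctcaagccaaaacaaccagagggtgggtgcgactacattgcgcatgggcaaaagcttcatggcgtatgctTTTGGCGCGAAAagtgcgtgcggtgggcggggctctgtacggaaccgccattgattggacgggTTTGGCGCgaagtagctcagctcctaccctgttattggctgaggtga
The windows of Hspa1a and Hspa1b, neighbouring genes for near-identical HSP70 proteins, differ at 3 of 250 bases, and both carry the heat shock element with its first base at -104 from the start site. Hspb1 carries it at -117 and -97. The CHR of Cdc20 begins at -18, where 9 bases between the end of the window shown and the RefSeq start site lie in an annotated exon and are left out, and those of Top2a at -179 and -23. In Mcm5 the E2F matches begin at -153 and -149 and overlap on opposite strands. In Mcm6 they begin at -110, -106 and -47, the first pair again overlapping.

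How common these letters are was counted in the promoters of the 10569 tested genes that have a sequence. The CHR letters occurred in 11 of 34 G2/M genes (32.35%), 4 of 33 of the S phase list (12.12%) and 10.15% of all promoters. E2F letters occurred in 8 of 33 S phase genes (24.24%), 1 of 34 G2/M genes (2.94%) and 3.32% of all promoters. The 2-unit heat shock element occurred in 8 of 26 heat shock genes (30.77%) and 9.97% of all promoters. It was chosen after a 3-unit element (GAANNTTCNNGAA), present in 0.31% of all promoters and 2 of the 26, had been searched and not found in the Hsp genes shown. A match is a stretch of letters, not a measured binding site.

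The delivered genes matched the labels. Cdkn1a (chr17:29090976-29100727) stood at 350, 375 and 356 CPM in the control libraries, 1773, 1429 and 1612 CPM in the p21 libraries and 371, 379 and 367 CPM in the p16 libraries. Cdkn2a (chr4:89274471-89294653), whose counts sum the exons of p16 and of the overlapping Arf transcript, stood at 36.9, 42.2 and 34.7 CPM in the control libraries, 48.1, 47.4 and 43.98 CPM in the p21 libraries and 1927, 1576 and 1691 CPM in the p16 libraries. CPM are counts relative to the library total after TMM scaling, which evens out composition differences between libraries. Each delivered gene was therefore high in its own group alone: Cdkn1a was 4.30-fold higher with p21 than with p16, and Cdkn2a was 37.2-fold higher with p16 than with p21. Against the empty vector this was a log2 change of 2.15 for Cdkn1a and 5.51 for Cdkn2a, and the protein levels were not measured. With p16, Cdkn1a was at 0.05 (adjusted p = 0.52), and with p21, Cdkn2a rose by 0.29 (adjusted p = 2.1e-04).

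p21 and p16 differed in many genes by small amounts. Of 14223 genes tested, 3214 (22.6%) passed an adjusted p of 0.05 in p21 against p16 (edgeR quasi-likelihood test with the replicate number as a block), 1566 higher with p21 (11.0%) and 1648 lower (11.6%). With library totals in place of TMM, 1301 were higher and 2007 lower. The median size of a called change was 0.22 on the log2 scale, and 64 genes were called and at least 2-fold higher by estimate (0.450%) and 25 at least 2-fold lower (0.176%). At 1.5-fold these counts were 166 (1.17%) and 149 (1.05%). Without the block 1858 genes passed, all of them among the 3214. Without p16 replicate 1 the count was 2064, and 1485 genes passed in each of the 9 fits that left out 1 library. The p21 and p16 libraries did not overlap in CPM for 4441 genes (31.2%). Against a change of 1.5-fold as the null (glmTreat), 25 genes passed. Among the 15 higher with p21 were Cdkn1a, the skeletal alpha-actin gene Acta1, the adhesion receptor gene Icam1, the TNF family ligand gene Tnfsf15 and the cornified envelope genes Lce1g, Lce1h and Lce1l. Few reads lie behind Lce1l outside the p21 group, as given below, so the size of its change is uncertain. The 10 lower with p21 were Cdkn2a, Hspa1a, Hspa1b, Igfbp5, Ndrg1, Ndufa4l2, Ptn and the mitotic genes Ckap2l, Fam64a and Kif20b.

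**Figure D1:**
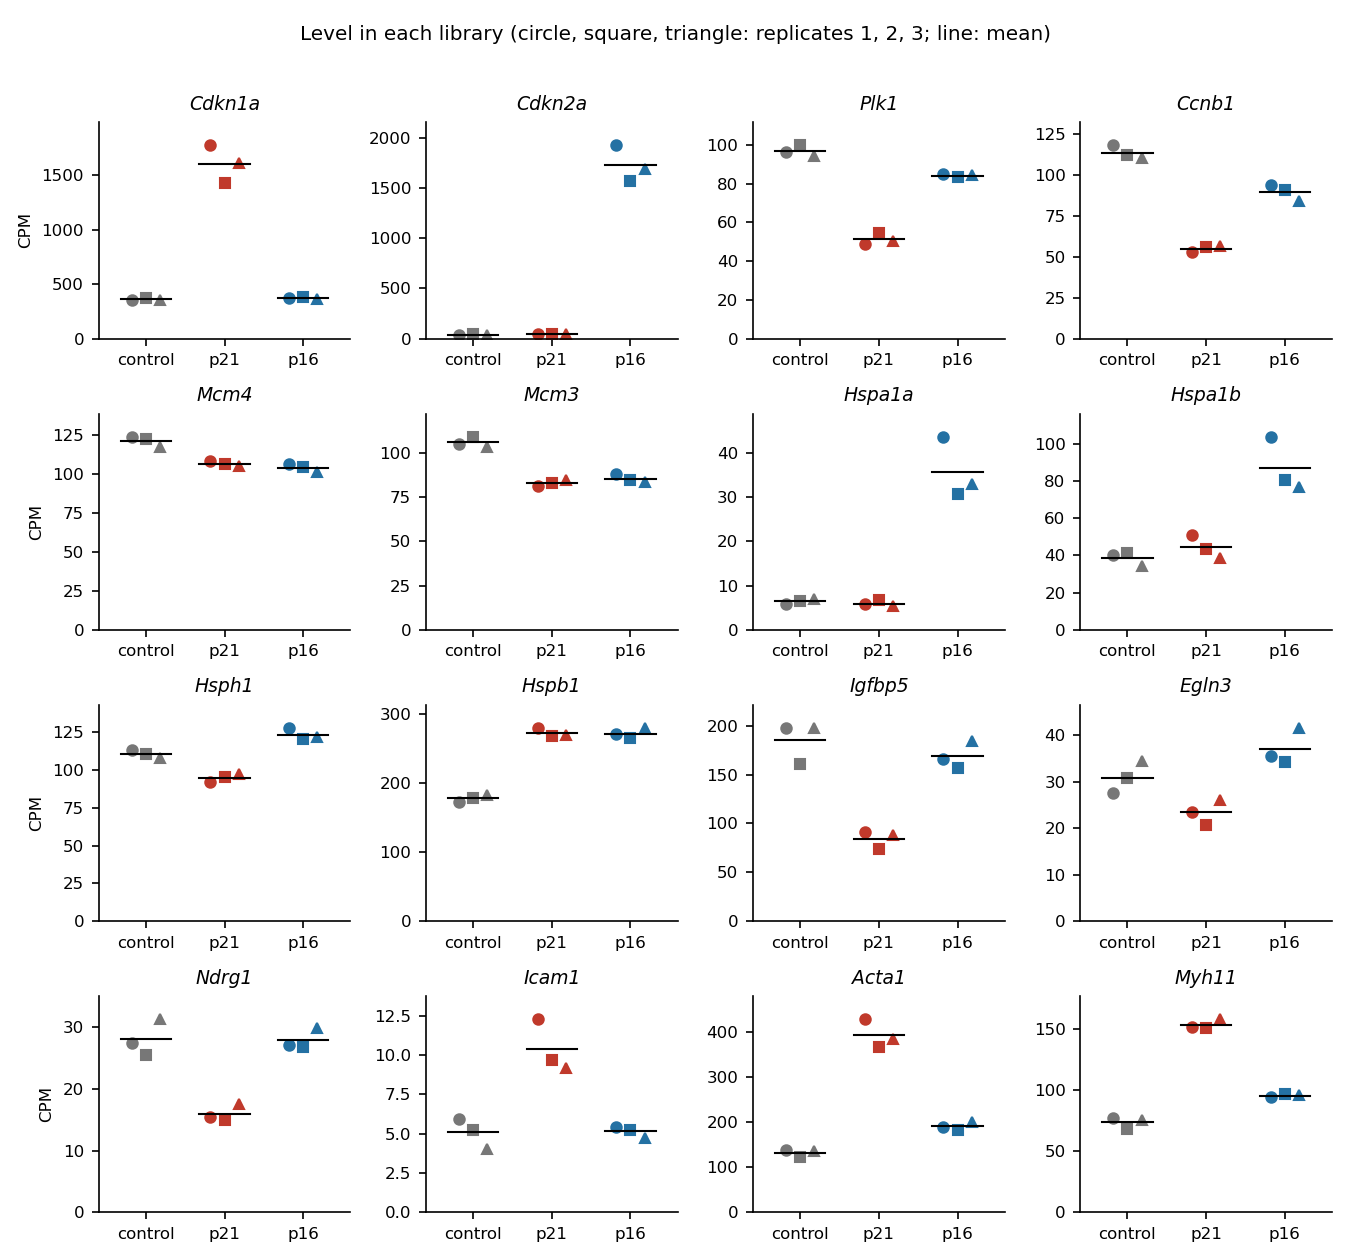
Level of 16 genes in each of the 9 libraries, in CPM on linear axes that start at 0, with points for single libraries (circle, square and triangle for replicates 1, 2 and 3) and lines for group means. Plk1 and Ccnb1 are lowest with p21, Mcm3 and Mcm4 are at like levels with both inhibitors, and Hspa1a lies between 30.6 and 43.6 CPM with p16 and between 5.37 and 6.94 CPM in the other libraries.

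Mitotic genes were lower with p21 than with p16 almost without exception. Of the 42 G2/M and mitosis genes listed, 41 were lower with p21 and 1 was higher, beside 11.6% and 11.0% of all genes. The median log2 fold change was -0.64, against -0.0019 over all genes. Measured from the empty vector, the list's median was -0.96 with p21 and -0.29 with p16, and both inhibitors lowered it: 41 of 42 genes fell with p21 (24.2% of all genes did) and 40 with p16 (10.1% of all genes). Over all genes, 6856 (48.2%) were called with p21 against the empty vector and 3044 (21.4%) with p16, and rises made up 24.0% and 11.3% of the genes tested. In bulk samples, fewer cells in mitosis and less RNA per such cell cannot be told apart. Plk1 (chr7:122159439-122169873), a kinase needed for mitotic entry and spindle formation, stood at 96.5, 99.8 and 94.4 CPM in the control libraries, 48.7, 54.6 and 50.4 CPM in the p21 libraries and 85.0, 83.3 and 84.5 CPM in the p16 libraries. The p21 libraries lay below all others and the p16 libraries just below the controls (log2 fold change -0.72 ± 0.041 (SE), adjusted p = 1.5e-11 for p21 against p16). Ccnb1, the cyclin that drives mitotic entry, stood at 118, 112 and 110 CPM in the controls, 52.6, 55.7 and 56.3 CPM with p21 and 93.9, 90.7 and 84.1 CPM with p16, again with no overlap between the groups (log2 fold change -0.71 ± 0.044 (SE), adjusted p = 3.9e-11). Cdc20, which activates the anaphase-promoting complex and whose promoter is shown above, stood at 142, 138 and 130 CPM in the controls, 69.1, 77.4 and 77.1 CPM with p21 and 119, 117 and 114 CPM with p16 (log2 fold change -0.65 ± 0.044 (SE), adjusted p = 1.3e-10). The other mitotic genes lay close together: Kif20a, a cytokinesis kinesin with 29.3% of its exon bases under a gene on the opposite strand, at -0.67, Prc1, which bundles spindle microtubules, at -0.63, Ccna2 at -0.65, Top2a at -0.63 and the proliferation marker Mki67 at -0.61.

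Outside the list, the largest falls named by the rule held further mitotic genes. Kif20b, a kinesin of cytokinesis, stood at 47.3, 44.1 and 45.6 CPM in the controls, 21.1, 20.8 and 22.4 CPM with p21 and 40.5, 39.5 and 34.2 CPM with p16 (log2 fold change -0.83 ± 0.058 (SE), adjusted p = 2.0e-10), and Ckap2l, a spindle protein, at 63.1, 61.7 and 61.7 CPM in the controls, 31.3, 34.0 and 32.04 CPM with p21 and 58.8, 57.9 and 51.3 CPM with p16 (log2 fold change -0.79 ± 0.048 (SE), adjusted p = 3.6e-11). Fam64a, a regulator of the metaphase to anaphase transition, was at -0.82, and Knstrn, a kinetochore adaptor, at -0.79. 2 genes of the list departed from the rest in different ways. Nusap1, a microtubule-binding protein of the spindle, stood at 25.9, 27.6 and 28.0 CPM in the controls, 14.5, 15.3 and 15.2 CPM with p21 and 26.0, 25.9 and 25.3 CPM with p16: it fell with p21 (-0.86 (adjusted p = 1.0e-11) against the empty vector) and had no called change with p16 (-0.08 (adjusted p = 0.34)). The difference between the inhibitors was log2 fold change -0.78 ± 0.056 (SE), adjusted p = 3.0e-10. Pttg1, which encodes securin, stood at 11.3, 9.83 and 9.98 CPM in the controls, 12.1, 12.1 and 11.9 CPM with p21 and 9.66, 9.94 and 10.8 CPM with p16 and was the single member higher with p21 (log2 fold change 0.25 ± 0.077 (SE), adjusted p = 0.023, and 0.051 without the replicate block). That call was also lost in 4 of the 9 fits that left out 1 library, each of them a p21 or p16 library of replicate 1 or 2.

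DNA replication genes were much nearer to each other in the 2 groups. Of 40 genes of the S phase and DNA replication list, 21 were lower with p21, none was higher and 19 were not called, beside 11.6% lower and 11.0% higher of all genes. Their median difference was -0.16. Against the empty vector, 38 fell with p21 and 34 with p16, beside 24.2% and 10.1% of all genes, by medians of -0.40 and -0.26. Within the list, the 6 subunits of the MCM2-7 helicase, which unwinds DNA at origins, did not all show the same levels. Mcm2 stood at 104, 102 and 101 CPM in the controls, 87.1, 88.7 and 75.6 CPM with p21 and 85.9, 83.3 and 86.9 CPM with p16, Mcm3 at 105, 109 and 103 CPM in the controls, 81.1, 82.6 and 84.9 CPM with p21 and 87.9, 84.5 and 83.5 CPM with p16 and Mcm4 at 124, 123 and 117 CPM in the controls, 108, 106 and 105 CPM with p21 and 106, 105 and 101 CPM with p16. For these 3 the p21 and p16 libraries lay together below the controls, and the difference between the inhibitors did not pass: log2 fold change -0.03 ± 0.044 (SE), adjusted p = 0.71 for Mcm2, log2 fold change -0.04 ± 0.039 (SE), adjusted p = 0.49 for Mcm3 and log2 fold change 0.04 ± 0.034 (SE), adjusted p = 0.51 for Mcm4. Mcm5 stood at 114, 118 and 107 CPM in the controls, 79.5, 78.3 and 76.6 CPM with p21 and 87.0, 87.0 and 86.2 CPM with p16, Mcm6 at 155, 148 and 145 CPM in the controls, 121, 113 and 119 CPM with p21 and 141, 133 and 131 CPM with p16 and Mcm7 at 119, 119 and 114 CPM in the controls, 87.0, 88.5 and 87.3 CPM with p21 and 102, 98.7 and 98.0 CPM with p16. In these 3 the p16 libraries lay between the controls and the p21 libraries, and the differences passed (log2 fold change -0.15 ± 0.037 (SE), adjusted p = 0.0047 for Mcm5, log2 fold change -0.20 ± 0.034 (SE), adjusted p = 1.4e-04 for Mcm6 and log2 fold change -0.19 ± 0.036 (SE), adjusted p = 4.9e-04 for Mcm7).

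The gene for the catalytic subunit of the primase-polymerase, Pola1, was at 0.00 between the inhibitors, after falls of -0.35 with p21 and -0.35 with p16. Tk1, thymidine kinase, was at -0.47, and Rfc5, a clamp loader subunit, at -0.50. Rrm1, the large subunit of ribonucleotide reductase, stood at 263, 251 and 243 CPM in the controls, 179, 183 and 189 CPM with p21 and 243, 230 and 226 CPM with p16 (log2 fold change -0.34 ± 0.036 (SE), adjusted p = 1.5e-07). Rrm2, the small subunit, was at -0.26, with overlap between the p21 and p16 libraries (adjusted p = 3.9e-06, and 0.080 without the replicate block). The separation of the 2 lists is drawn in the plot of both effects per gene.

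**Figure D2:**
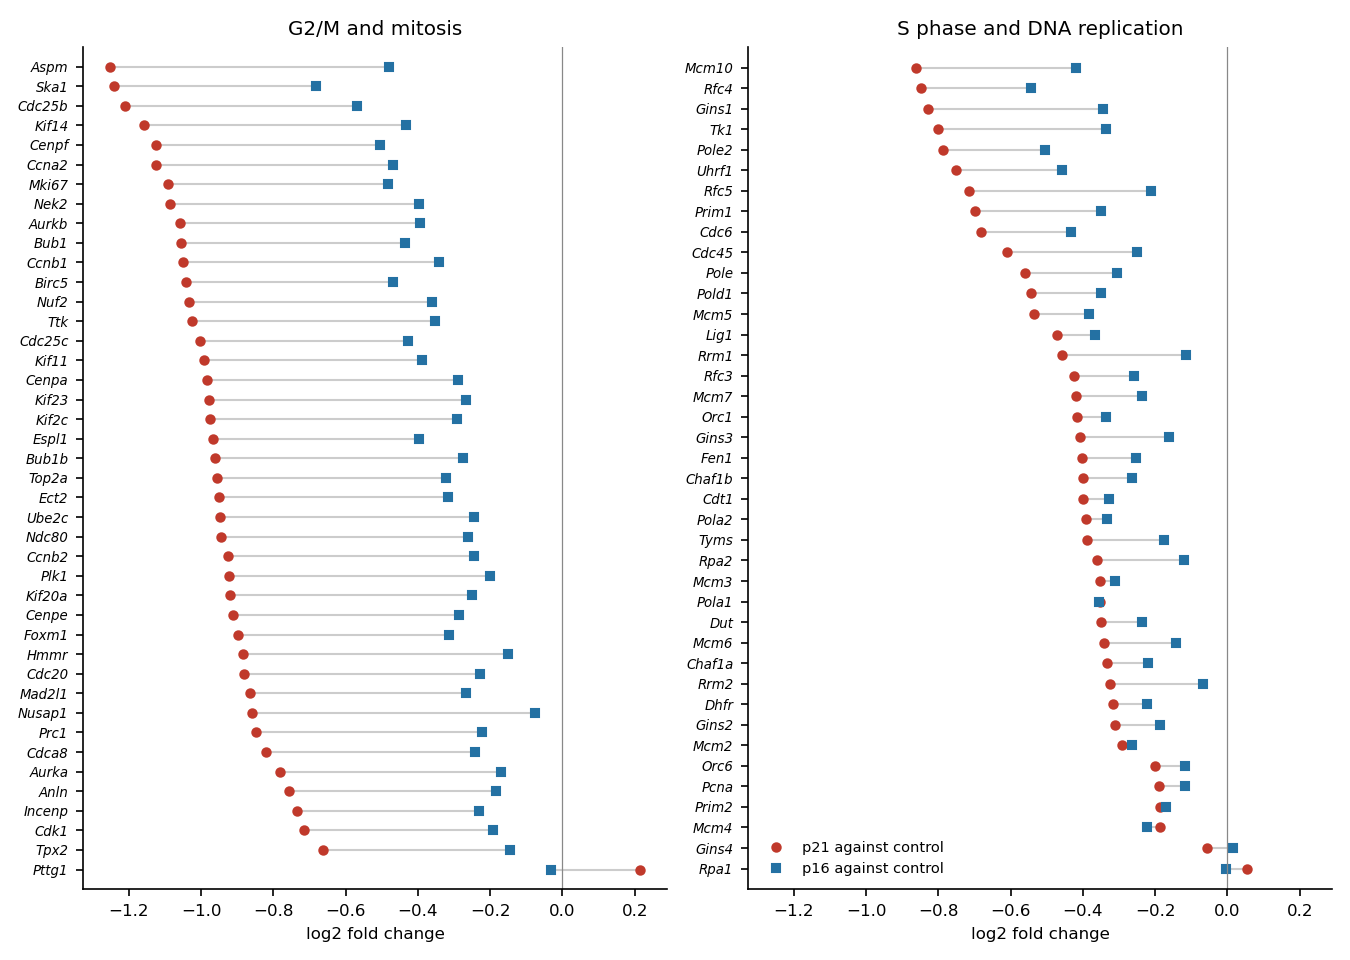
Log2 fold change against the empty vector with p21 (red circles) and with p16 (blue squares) for the 42 G2/M and mitosis genes tested and the 40 of the S phase and DNA replication list, ordered by the p21 value, with a grey line joining both values of a gene. Both comparisons use the same 3 control libraries. The median is -0.96 with p21 and -0.29 with p16 in the G2/M and mitosis list, and -0.40 and -0.26 in the S phase list.

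The genes that regulate this arrest differed in both directions, with more called lower than higher with p21. Of 29 listed genes for pocket proteins, E2F factors, cyclins, CDKs and their inhibitors, 4 were higher and 11 lower with p21, beside 11.0% and 11.6% of all genes, with a median of -0.08. Ccnd1, the D-type cyclin that p16 keeps off its kinases, stood at 354, 376 and 324 CPM in the controls, 475, 478 and 431 CPM with p21 and 465, 477 and 432 CPM with p16: both inhibitor groups lay above the controls, and they did not differ from each other beyond their spread (log2 fold change 0.01 ± 0.029 (SE), adjusted p = 0.86). Ccnd2 stood at 746, 749 and 687 CPM in the controls, 1248, 1213 and 1262 CPM with p21 and 1023, 1048 and 991 CPM with p16 and was higher with p21 (log2 fold change 0.28 ± 0.031 (SE), adjusted p = 3.2e-07). Mybl2, which activates mitotic genes, was at -0.36, the E2F repressor E2f8 at -0.50 and Cdk2 at -0.30. No difference passed for Cdk4 (-0.06, adjusted p = 0.19), Cdk6 (0.07, adjusted p = 0.54), E2f1 (0.07, adjusted p = 0.23) or Rb1 (0.19, adjusted p = 0.064). Cdkn1c, the gene for the related inhibitor p57, stood at 21.8, 23.8 and 24.1 CPM in the controls, 28.2, 24.9 and 27.3 CPM with p21 and 31.3, 30.0 and 32.4 CPM with p16, with all p16 libraries above all p21 libraries (log2 fold change -0.22 ± 0.055 (SE), adjusted p = 0.0049).

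Since p21 moved the cell division genes further than p16 did, each gene's p16 change was next set beside a scaled copy of its p21 change. The scale was the slope through the origin of the p16 on the p21 log2 fold changes over the 82 tested genes of the 2 cell division lists, which came to 38.7%. A gene at 0 on this scaled contrast moved with p16 by 38.7% of what it moved with p21, and a positive value means that the p16 libraries were higher than that. The scale comes from the same libraries and its error does not enter the test. It is a pooled slope between that of the G2/M and mitosis list (34.3%) and that of the S phase list (56.0%), so the 2 lists share no single scale. On the scaled contrast 8 of 40 S phase genes were called below and none above, and 3 of 42 G2/M and mitosis genes above and none below. Of all genes 0.534% were called below and 1.34% above. Since these helped to set the scale, nothing is read from their calls. Both effects also share the control libraries. On this contrast 266 genes were called (1.87%), 190 above the scaled p21 change (1.34%) and 76 below it (0.534%). Without the replicate block 14 were called, 11 above, the delivered gene Cdkn2a among them, and 3 below, the delivered gene Cdkn1a among them. The count also hung on single libraries: it was 85 without p16 replicate 1, 121 without p16 replicate 2 and 108 without p16 replicate 3. It was 133 without control replicate 1, 133 without control replicate 2 and 443 without p21 replicate 3, and 50 genes were called in all 9 such fits. With the slope of the G2/M and mitosis list alone (34.3%) 371 genes were called, with that of the S phase list alone (56.0%) 292 and with that of all genes (49.9%) 211, and 120 genes were called under all 4 slopes.

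**Figure D3:**
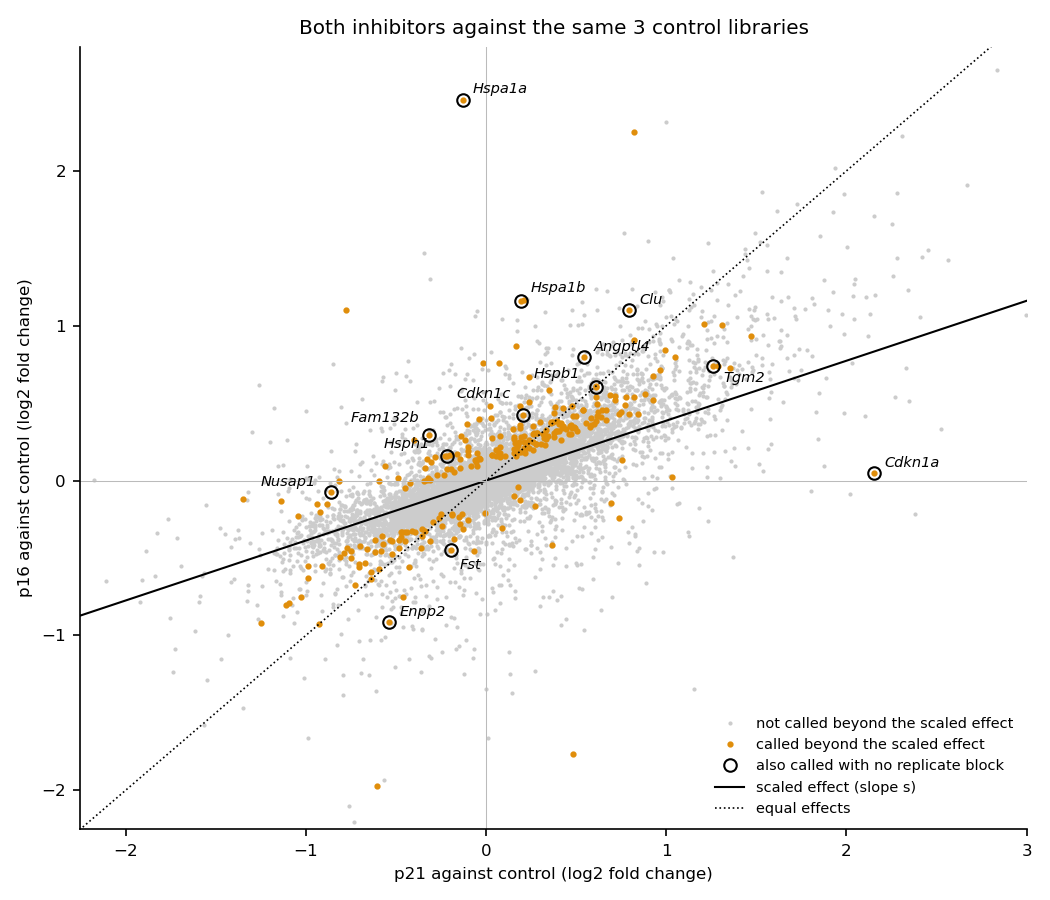
Log2 fold change against the empty vector with p21 (horizontal) and with p16 (vertical), 1 point a gene, both against the same 3 control libraries. The solid line is the p21 change scaled to 38.7%, the dotted line equal changes, orange points the 266 genes called beyond the scaled change and circles those also called without the replicate block, of which Hspa1a lies farthest above the line. 7 genes lie outside the axes, 1 of them, Cdkn2a, called.

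Of the 266 genes, 190 were called against the empty vector with both inhibitors, 44 with p16 and not p21, 31 with p21 and not p16, and 1 with neither. Direct comparison of p21 with p16 also called 159 of them, which is 59.8% of the 266 and 4.95% of the 3214. The remaining 107 differed from the scaled change without a called difference between the inhibitors. The 14 genes called with and without the block were Cdkn1a, Cdkn2a, Hspa1a, Hspa1b, Hsph1, Hspb1, Clu, Angptl4, Fam132b, Cdkn1c, Nusap1, Tgm2, Fst and Enpp2. Cdkn1a and Cdkn2a are the delivered genes and stand apart by design, and Nusap1 is itself among the 82 genes that set the scale. All but Tgm2 were called under all 4 slopes. All but Nusap1, which had an adjusted p of 0.057 without p16 replicate 1, were called in every fit that left out 1 library.

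Heat shock genes made up 4 of those 14, which include both delivered genes. Of the 34 chaperone genes listed, 5 were called above the scaled change and none below, beside 1.34% and 0.534% of all genes, and without the block 4 and none. Hspa1a (chr17:34969190-34972156), the stress-inducible HSP70, stood at 5.92, 6.50 and 6.94 CPM in the control libraries, 5.78, 6.65 and 5.37 CPM in the p21 libraries and 43.6, 30.6 and 32.9 CPM in the p16 libraries. The p16 libraries lay far above the other 6, which overlapped. It was 6.02-fold higher with p16 than with p21 (log2 fold change -2.59 ± 0.10 (SE), adjusted p = 9.8e-15), and the differences within replicate numbers were -2.91, -2.20 and -2.60 on the log2 scale. Hspa1b (chr17:34956436-34959238), its near-identical neighbour, stood at 40.2, 41.3 and 34.5 CPM in the control libraries, 50.9, 43.7 and 38.4 CPM in the p21 libraries and 104, 80.5 and 76.9 CPM in the p16 libraries, a 1.96-fold difference between the inhibitors (log2 fold change -0.97 ± 0.053 (SE), adjusted p = 7.4e-12). Reads of these 2 genes can be assigned to either or dropped by the authors' counting, and 19.0% of the exon bases of Hspa1a lie under a gene on the opposite strand, so their separate values are uncertain. On the scaled contrast Hspa1a was at 2.51 ± 0.082 (SE), adjusted p = 3.0e-16 with the replicate block and 7.5e-08 without it, and Hspa1b at 1.09 ± 0.045 (SE), adjusted p = 3.9e-14 with the replicate block and 3.3e-04 without it.

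Other chaperones showed other patterns. Hsph1 (chr5:149614287-149636376), an HSP110 that recharges HSP70 with nucleotide, stood at 113, 110 and 108 CPM in the controls, 92.2, 95.5 and 97.1 CPM with p21 and 128, 121 and 122 CPM with p16, so the p21 libraries lay below the controls and the p16 libraries above them (log2 fold change -0.38 ± 0.037 (SE), adjusted p = 6.7e-08). Hspb1, the small heat shock protein HSP27, stood at 173, 178 and 183 CPM in the controls, 279, 268 and 269 CPM with p21 and 270, 264 and 279 CPM with p16. Both inhibitors raised it, p21 by 0.61 and p16 by 0.61 on the log2 scale, with no called difference between them (log2 fold change 0.01 ± 0.033 (SE), adjusted p = 0.94), and on the scaled contrast it was at 0.37 ± 0.028 (SE), adjusted p = 1.1e-08 with the replicate block and 6.5e-05 without it. Cryab, another small heat shock protein, with 17.0% of its exon bases under a gene on the opposite strand, stood at 69.1, 72.5 and 63.6 CPM in the controls, 141, 132 and 117 CPM with p21 and 101, 99.8 and 93.5 CPM with p16 and was higher with p21 (log2 fold change 0.41 ± 0.039 (SE), adjusted p = 4.5e-08). In the whole list of 34 chaperone genes, 7 were higher and 13 lower with p21, beside 11.0% and 11.6% of all genes, with a median of -0.06. The count of 13 was 8 without the block, 7 without p21 replicate 1 and 8 without p16 replicate 1. Endoplasmic reticulum chaperones had 2 of 21 lower, near the share over all genes, and none higher.

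**Figure D4:**
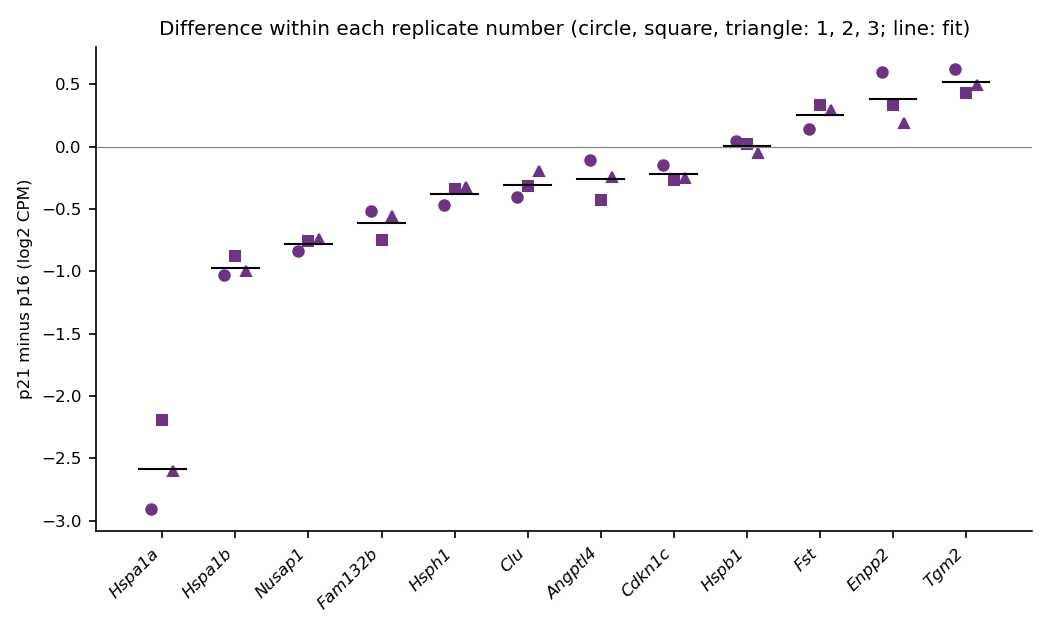
Difference in log2 CPM between the p21 and the p16 library of each replicate number (circle, square and triangle for 1, 2 and 3) for the 12 genes other than Cdkn1a and Cdkn2a that were called beyond the scaled change with and without the replicate block, with a line for the fitted value. Hspa1a lies at -2.91, -2.20 and -2.60, Hspb1 lies around 0, and in each of the other genes the 3 points lie on the same side of 0.

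Others of the 14 genes moved the same way with both inhibitors and further with p16. Clu, the secreted chaperone clusterin, stood at 4.28, 3.79 and 3.37 CPM in the controls, 7.34, 6.37 and 6.08 CPM with p21 and 9.71, 7.94 and 6.97 CPM with p16 (log2 fold change -0.31 ± 0.091 (SE), adjusted p = 0.015, and 0.14 without the replicate block), and the direct call was lost without p21 replicate 1 (adjusted p = 0.099) or p16 replicate 1 (adjusted p = 0.13). Angptl4, an inhibitor of lipoprotein lipase, stood at 19.1, 17.2 and 15.6 CPM in the controls, 29.8, 23.0 and 22.8 CPM with p21 and 32.1, 31.0 and 27.0 CPM with p16 (log2 fold change -0.26 ± 0.058 (SE), adjusted p = 0.0021, and 0.14 without the replicate block). Enpp2, the secreted enzyme autotaxin that makes lysophosphatidic acid, stood at 18.1, 18.6 and 15.96 CPM in the controls, 13.1, 13.2 and 10.03 CPM with p21 and 8.65, 10.5 and 8.78 CPM with p16, below the controls in both groups and lowest with p16 (log2 fold change 0.38 ± 0.078 (SE), adjusted p = 9.4e-04). Fst, the activin antagonist follistatin, stood at 137, 134 and 121 CPM in the controls, 108, 118 and 115 CPM with p21 and 98.2, 94.0 and 94.2 CPM with p16 (log2 fold change 0.26 ± 0.043 (SE), adjusted p = 9.8e-05), again lowest with p16. The p21 and p16 libraries overlapped for Clu, Angptl4 and Enpp2 and not for Fst. On the scaled contrast these 4 were at 0.79, 0.59, -0.71 and -0.38, with adjusted p without the block of 0.017, 0.032, 0.017 and 0.0042. Tgm2, a protein crosslinking enzyme, stood at 73.2, 72.0 and 74.6 CPM in the controls, 185, 170 and 170 CPM with p21 and 120, 126 and 121 CPM with p16: it was higher with p21 (log2 fold change 0.51 ± 0.038 (SE), adjusted p = 6.1e-10) by less than the scale gives, at 0.26 ± 0.034 (SE), adjusted p = 5.5e-05 with the replicate block and 0.017 without it on the scaled contrast.

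Genes raised or lowered by like amounts with both inhibitors also stood apart on the scaled contrast, since equal changes exceed a scaled one. Ccnd1, described above, was at 0.23 ± 0.025 (SE), adjusted p = 4.1e-06 with the replicate block and 0.14 without it, so that this call rests on the block. The same held for Acan, the cartilage proteoglycan aggrecan, which stood at 23.0, 24.7 and 40.3 CPM in the controls, 12.0, 13.996 and 19.9 CPM with p21 and 13.6, 13.5 and 18.4 CPM with p16. Its replicate 3 libraries were the highest of their groups, and p21 and p16 did not differ beyond their spread (log2 fold change 0.00 ± 0.070 (SE), adjusted p = 0.9998). On the scaled contrast it was at -0.57 ± 0.059 (SE), adjusted p = 2.1e-06 with the replicate block and 0.45 without it.

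Some genes were changed by p21 and stayed near the empty vector with p16. Igfbp5 (chr1:72857932-72874884), a binding protein of insulin-like growth factors, stood at 198, 161 and 198 CPM in the control libraries, 90.8, 73.6 and 88.0 CPM in the p21 libraries and 166, 157 and 184 CPM in the p16 libraries. The p21 libraries lay below all others, and the p16 libraries overlapped the controls. It was 2.01-fold lower with p21 than with p16 (log2 fold change -1.01 ± 0.041 (SE), adjusted p = 1.3e-14), and against the empty vector it was at -1.14 (adjusted p = 3.9e-16) with p21 and -0.13 (adjusted p = 0.019) with p16. Ndrg1, a stress and hypoxia-responsive gene, stood at 27.4, 25.5 and 31.2 CPM in the controls, 15.4, 14.9 and 17.5 CPM with p21 and 27.0, 26.8 and 29.9 CPM with p16 (log2 fold change -0.81 ± 0.054 (SE), adjusted p = 1.3e-10). Ndufa4l2, a hypoxia-responsive mitochondrial protein, stood at 9.06, 9.88 and 15.1 CPM in the controls, 4.92, 3.54 and 4.60 CPM with p21 and 8.41, 9.02 and 13.96 CPM with p16 (log2 fold change -1.23 ± 0.12 (SE), adjusted p = 4.3e-08). Stc2, a secreted glycoprotein of the ATF4 list, stood at 20.7, 19.9 and 19.2 CPM in the controls, 13.6, 12.0 and 14.02 CPM with p21 and 20.7, 19.1 and 20.1 CPM with p16 (log2 fold change -0.59 ± 0.063 (SE), adjusted p = 2.1e-07). In the upward direction, Icam1, a receptor for leukocyte integrins, stood at 5.96, 5.27 and 4.02 CPM in the controls, 12.3, 9.69 and 9.17 CPM with p21 and 5.44, 5.26 and 4.75 CPM with p16, a 2.01-fold difference (log2 fold change 1.01 ± 0.095 (SE), adjusted p = 3.2e-08). With p16, Ndrg1, Ndufa4l2, Stc2 and Icam1 were at 0.00, -0.12, 0.00 and 0.03 against the empty vector, and none of these passed. On the scaled contrast Igfbp5 was at 0.31, Ndrg1 at 0.31, Ndufa4l2 at 0.41, Stc2 at 0.23 and Icam1 at -0.37. All of these scaled values were called with the replicate block and none without it. Those of Ndufa4l2, Stc2 and Icam1 were also lost in several fits that left out 1 library. Gas1, a hedgehog co-receptor, was at -0.81 in p21 against p16. Ptn, the growth factor pleiotrophin, was at -0.91 (adjusted p = 2.1e-10, and 0.061 without the replicate block). Unlike the genes above, both also fell with p16. Against the empty vector Gas1 was at -1.59 with p21 and -0.78 with p16, and Ptn at -1.31 and -0.40. Neither Gas1 nor Ptn was called on the scaled contrast.

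The rule for genes that moved in opposite directions named 7: Egln3, Fam132b, Hsph1, Tmem119, Fabp5, Wisp1 and Msln. In the fit with the replicate block, p21 lowered and p16 raised the first 6 against the empty vector, and in Msln p21 raised and p16 lowered the level. The difference between p21 and p16 passed for all 7 without the block too. On the scaled contrast all 7 were called with the block, and only Fam132b and Hsph1 without it. The changes of Wisp1 were the smallest, at -0.08 (adjusted p = 0.032) with p21 and 0.09 (adjusted p = 0.033) with p16. Egln3 (chr12:54178981-54203860), an oxygen-sensing hydroxylase that marks HIF proteins for destruction and is itself induced by hypoxia, stood at 27.5, 30.8 and 34.4 CPM in the control libraries, 23.5, 20.8 and 26.1 CPM in the p21 libraries and 35.6, 34.3 and 41.6 CPM in the p16 libraries. Within each replicate number p21 was below and p16 above the empty vector, and the p21 and p16 libraries did not overlap (log2 fold change -0.66 ± 0.056 (SE), adjusted p = 4.8e-09). Fam132b, which encodes erythroferrone, a secreted regulator of iron supply, stood at 17.4, 17.5 and 16.5 CPM in the controls, 14.2, 13.9 and 13.3 CPM with p21 and 20.3, 23.4 and 19.5 CPM with p16 (log2 fold change -0.61 ± 0.063 (SE), adjusted p = 1.3e-07). Msln, the surface protein mesothelin, stood at 7.51, 9.19 and 8.61 CPM in the controls, 8.50, 13.0 and 11.5 CPM with p21 and 5.10, 5.90 and 8.23 CPM with p16 (log2 fold change 0.78 ± 0.10 (SE), adjusted p = 5.6e-06). For Msln, p21 replicate 1 and p16 replicate 3 lay within the range of the controls. Tmem119, Fabp5, a fatty acid binding protein, and Wisp1, a matricellular protein, differed by -0.36, -0.29 and -0.17 between the inhibitors.

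Hypoxia-linked genes appear in both of these groups, and the list of 25 glycolysis and hypoxia genes had 2 higher and 10 lower with p21, beside 11.0% and 11.6% of all genes, at a median of -0.07. Without the replicate block 5 were lower. On the scaled contrast 7 were called above and none below with the block, beside 1.34% and 0.534% of all genes, and none without it. The 7 numbered 4 without p16 replicate 2 and 4 without p16 replicate 3. Slc2a1, the glucose transporter GLUT1, stood at 220, 216 and 222 CPM in the controls, 225, 209 and 208 CPM with p21 and 246, 239 and 243 CPM with p16 (log2 fold change -0.18 ± 0.033 (SE), adjusted p = 1.9e-04). The 10 amino acid supply and stress genes of the ATF4 list that were lower with p21, of 21 tested, numbered 6 without the block, and 1 gene was higher, beside the same shares of all genes. Psat1 and Shmt2, enzymes of serine and one-carbon metabolism, were at -0.32 and -0.27, and the amino acid transporter gene Slc7a5 stood at 230, 232 and 249 CPM in the controls, 164, 166 and 180 CPM with p21 and 204, 204 and 215 CPM with p16 (log2 fold change -0.29 ± 0.031 (SE), adjusted p = 2.8e-07). Of 29 cholesterol synthesis and uptake genes, 18 were lower with p21 and none was higher, again beside 11.6% and 11.0% of all genes, with a median of -0.15. From the empty vector the list's median was -0.19 with p21 and -0.07 with p16. Hmgcs1, an early enzyme of the pathway, was at -0.22, and Insig1, its feedback regulator, at -0.25.

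Contractile genes were higher with p21. Of 27 smooth muscle and contractile genes, 16 were higher and none lower, beside 11.0% and 11.6% of all genes, with a median of 0.19. From the empty vector the median was 0.26 with p21 and 0.11 with p16. Myh11, the smooth muscle myosin heavy chain, stood at 77.3, 67.9 and 75.3 CPM in the controls, 151, 150 and 157 CPM with p21 and 93.8, 96.3 and 95.7 CPM with p16, rising from the controls over p16 to p21 with no overlap (log2 fold change 0.68 ± 0.040 (SE), adjusted p = 1.8e-11). Des, the muscle intermediate filament desmin, stood at 87.4, 94.7 and 80.04 CPM in the controls, 244, 227 and 200 CPM with p21 and 149, 161 and 125 CPM with p16 (log2 fold change 0.63 ± 0.040 (SE), adjusted p = 6.1e-11), and Tagln, a smooth muscle actin-binding protein with 67.9% of its exon bases under a gene on the opposite strand, stood at 3386, 3393 and 3295 CPM in the controls, 4658, 4445 and 4518 CPM with p21 and 3712, 3750 and 3626 CPM with p16 (log2 fold change 0.30 ± 0.025 (SE), adjusted p = 4.6e-09). Acta1 (chr8:123891769-123894751), skeletal alpha-actin, stood at 138, 123 and 137 CPM in the controls, 429, 366 and 386 CPM with p21 and 189, 184 and 201 CPM with p16, a 2.06-fold difference (log2 fold change 1.04 ± 0.038 (SE), adjusted p = 2.1e-15). It was the single gene called among 10 skeletal and cardiac muscle markers.

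**Figure D5:**
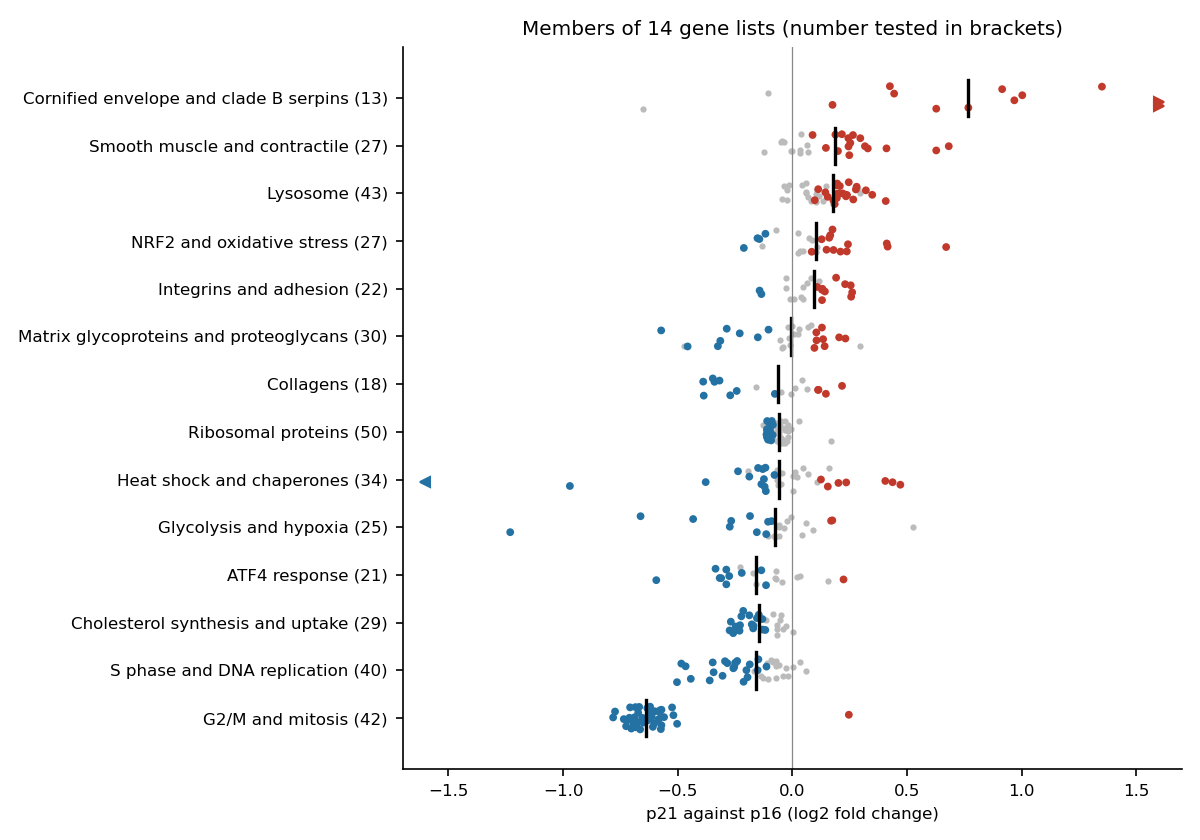
Log2 fold change of p21 against p16 for the tested genes of 14 lists, 1 point a gene, red for called higher with p21, blue for called lower and grey for not called, with a black bar at the list's median and triangles for genes beyond the axis. The median is -0.64 in the G2/M and mitosis list, -0.16 in the S phase list, 0.19 in the smooth muscle list and 0.18 in the lysosome list.

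Lysosomal genes showed the same direction as the contractile ones. Of 43, 23 were higher with p21 and none was lower, beside 11.0% and 11.6% of all genes, at a median of 0.18, with medians of 0.32 with p21 and 0.16 with p16 against the empty vector. Markers of macrophages and other leukocytes, cells rich in lysosomes, moved with them: of 17 tested, 14 were higher with p21 and 7 with p16 against the empty vector, beside 24.0% and 11.3% of all genes, and none was lower. Between the inhibitors 16 of the 17 values were positive, with a median of 0.30, and 1 passed. Their part in the lysosomal counts was not tested. Ctsl, the cysteine protease cathepsin L, stood at 384, 386 and 414 CPM in the controls, 583, 547 and 602 CPM with p21 and 455, 471 and 460 CPM with p16 (log2 fold change 0.32 ± 0.033 (SE), adjusted p = 1.0e-07), and Ctsd, cathepsin D, with 34.4% of its exon bases shared with another gene on the same strand, was at 0.41. Of 27 NRF2 and oxidative stress genes 13 were higher and 4 lower, beside 11.0% and 11.6% of all genes, and without the replicate block 9 were higher and none lower. Hmox1, heme oxygenase, stood at 86.6, 89.8 and 90.7 CPM in the controls, 207, 186 and 180 CPM with p21 and 125, 121 and 113 CPM with p16 (log2 fold change 0.67 ± 0.041 (SE), adjusted p = 3.8e-11), and the quinone reductase gene Nqo1 stood at 33.1, 33.6 and 31.4 CPM in the controls, 48.7, 47.3 and 44.6 CPM with p21 and 35.0, 36.6 and 34.1 CPM with p16 (log2 fold change 0.41 ± 0.045 (SE), adjusted p = 2.6e-07). In both genes the p16 libraries lay between the controls and the p21 libraries. Of 22 integrin and adhesion genes 10 were higher and 2 lower, and 5 and none without the block.

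Late cornified envelope and clade B serpin genes, better known from skin, held several of the largest rises. Of 25 listed, 13 had enough reads to be tested. Of these 13, 11 were higher with p21 and none lower, beside 11.0% and 11.6% of all genes. Their median was 0.77, with medians of 1.23 with p21 and 0.66 with p16 against the empty vector. A gene with few reads outside the p21 group, like Lce1l below, could pass the count filter through that group. The count and the medians therefore favour rises with p21. Lce1h stood at 3.18, 2.68 and 2.97 CPM in the controls, 18.9, 13.6 and 14.5 CPM with p21 and 8.18, 4.87 and 5.52 CPM with p16 (log2 fold change 1.35 ± 0.089 (SE), adjusted p = 1.0e-10), and Serpinb9b, a protease inhibitor, was at 0.92. Lce1l stood at 0.0361, 0.137 and 0 CPM in the controls, 4.55, 2.54 and 2.39 CPM with p21 and 0.624, 0.334 and 0.163 CPM with p16, so that few reads lie behind it outside the p21 group. The Lce1 genes are close copies of each other, and reads could be split between them, so single values are uncertain. Crct1, from the same gene cluster, stood at 1.06, 1.03 and 1.24 CPM in the controls, 4.26, 3.52 and 3.91 CPM with p21 and 2.36, 1.49 and 2.02 CPM with p16 (log2 fold change 1.003 ± 0.15 (SE), adjusted p = 3.3e-05).

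Matrix genes split. Of 18 collagen genes 4 were higher and 8 lower with p21, beside 11.0% and 11.6% of all genes, and without the block 2 and 5. Col3a1, a fibrillar collagen, stood at 1626, 1711 and 1932 CPM in the controls, 1345, 1362 and 1502 CPM with p21 and 1636, 1742 and 1955 CPM with p16: the p21 libraries were low and the p16 libraries level with the controls (log2 fold change -0.34 ± 0.027 (SE), adjusted p = 1.7e-09). Col6a2, a chain of the beaded-filament collagen VI, stood at 341, 332 and 354 CPM in the controls, 221, 207 and 218 CPM with p21 and 281, 271 and 295 CPM with p16 (log2 fold change -0.39 ± 0.031 (SE), adjusted p = 1.7e-09). Of 30 matrix glycoprotein and proteoglycan genes 8 were higher and 8 lower, and 3 and 4 without the block. The 8 higher numbered 4 without p21 replicate 1, 4 without p16 replicate 1 and 5 without p16 replicate 3. Vcan, the proteoglycan versican, stood at 393, 350 and 424 CPM in the controls, 226, 222 and 261 CPM with p21 and 318, 304 and 350 CPM with p16 (log2 fold change -0.46 ± 0.032 (SE), adjusted p = 2.3e-10), and Fbln1, fibulin 1, at 51.6, 52.0 and 55.5 CPM in the controls, 29.1, 29.1 and 35.3 CPM with p21 and 43.3, 45.9 and 49.6 CPM with p16 (log2 fold change -0.57 ± 0.047 (SE), adjusted p = 3.9e-09).

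Genes of secreted signals differed in both directions. Among 36 secreted cytokines and growth factors 8 were higher and 7 lower with p21, beside 11.0% and 11.6% of all genes, and without the block 4 and none. Tnfsf15 stood at 2.62, 1.65 and 1.94 CPM in the controls, 8.88, 7.24 and 8.37 CPM with p21 and 4.10, 4.02 and 3.73 CPM with p16, with p16 between the controls and p21 (log2 fold change 1.04 ± 0.11 (SE), adjusted p = 3.0e-07), and Csf1, the macrophage growth factor, was at 0.42. Of 10 genes of the insulin-like growth factor axis 3 were higher and 1, Igfbp5, lower, and 2 and 1 without the block. Igfbp2 stood at 31.4, 36.4 and 42.7 CPM in the controls, 61.6, 65.4 and 81.7 CPM with p21 and 48.0, 50.7 and 54.6 CPM with p16 and was higher with p21 (log2 fold change 0.44 ± 0.047 (SE), adjusted p = 2.6e-07), the opposite direction to Igfbp5. Of 17 chemokine genes 3 were higher and 1 lower, and 1 and none without the block. The 3 numbered 1 without p16 replicate 1 and 2 without p21 replicate 1, p21 replicate 3 or p16 replicate 3. The gene that passed without the block was Ppbp, a platelet chemokine precursor and also 1 of the 25 genes past the 1.5-fold null, which stood at 36.9, 39.2 and 28.5 CPM in the controls, 116, 101 and 85.0 CPM with p21 and 63.4, 62.0 and 49.8 CPM with p16 (log2 fold change 0.79 ± 0.046 (SE), adjusted p = 1.8e-11). Of 23 interferon and antigen presentation genes 3 were higher and 1 lower, and of 14 NF-kB and feedback genes 2 and 1, both near the shares over all genes. Of 29 p53 target genes 7 were higher and 3 lower. The 7 p53 targets numbered 4 without the block, and 4 without p21 replicate 1, p21 replicate 3, p16 replicate 1 or p16 replicate 3.

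Markers of other cell types and technical values were set beside these results. Library totals ran from 44455730 to 63152239 counts. For the marker calls below, the shares over all genes were 11.0% higher and 11.6% lower with p21. Markers of macrophages and other leukocytes summed to 29.8 to 46.1 CPM in the controls, 50.0 to 68.2 CPM in the p21 libraries and 38.3 to 68.2 CPM in the p16 libraries, and 1 of 17 (Lyz2) was higher with p21, a call lost without the block, without p21 replicate 1 or without p16 replicate 1. 5 of the 20 leukocyte markers counted were under 1 CPM in every library. Endothelial markers summed to 46.8 to 54.7 CPM over all 9 libraries, and 2 of 9 (Emcn and Esam) were higher with p21. Epithelial and keratinocyte markers summed to 59.3 to 76.6 CPM in the controls, 69.3 to 85.3 CPM in the p21 libraries and 67.95 to 82.2 CPM in the p16 libraries, with 9 of 13 under 1 CPM in every library, and 1 of 4 tested (Krt18) was higher with p21. Adipocyte markers summed to 26.6 to 33.9 CPM over all 9 libraries, and 2 of 4 (Cebpa and Lpl) were lower with p21. The 8 red cell markers were all under 1 CPM in every library, and together summed to under 1 CPM. Neural and glial markers summed to 473.5 to 546.5 CPM in the controls, 576.7 to 669.4 CPM in the p21 libraries and 510.6 to 558.6 CPM in the p16 libraries, with 6 of 11 under 1 CPM in every library, and 2 of 7 tested (Nes and Stmn2) were higher with p21. Skeletal and cardiac muscle markers summed to 133 to 150 CPM in the controls, 381 to 444 CPM in the p21 libraries and 198 to 215 CPM in the p16 libraries, of which Acta1 alone made up most. All 12 fibroblast markers were measured, at summed levels of 26840 to 32590 CPM, and 1 (S100a4) was higher and 5 lower with p21, among them Pdgfra at -0.55. The 5 numbered 2 without p16 replicate 1 or p16 replicate 3. Of these marker calls, Krt18 and Acta1 passed without the replicate block. The call of Krt18 was lost without p21 replicate 1, p21 replicate 3, p16 replicate 2 or p16 replicate 3. Those of Emcn and Esam were lost without p21 replicate 1 or p16 replicate 1. Those of Cebpa and Lpl were also lost without p21 replicate 1, and without some p16 libraries. The part of these cell types in the differences was not tested. Across genes, which are not independent replicates, the direct log2 fold change had a Spearman correlation of -0.0763 with exon length and 0.0632 with GC content, over 14117 genes. Xist, which silences an X chromosome in female cells, was at 181 to 251 CPM in replicate 3 of every group. The block by replicate number also takes up this difference. Among the libraries of replicates 1 and 2, Xist was at 6.96 CPM in p21 replicate 1 and at 0.09 to 0.34 CPM in the others. The block does not take up this higher level, which the other replicate 1 libraries do not share. Its source and its part in the results were not tested.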

How the data were processed

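Per the labels' protocols, total RNA was column-extracted and 100 to 200 ng went into a TruSeq kit that keeps no strand, so reads of genes overlapping on opposite strands cannot be separated. The deposited values are raw counts per gene symbol. Per the submitters' processing notes, the authors used TopHat2 2.0.14, Bowtie2 2.2.6 and featureCounts 1.4.6 of Subread on mm10. The annotation and strand setting are not given in the sources used here.

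All 9 libraries entered 1 fit by edgeR 4.0.16 under R 4.3.3 (filterByExpr with minimum count 10 and minimum total 15, TMM scaling, quasi-likelihood F test, two-sided, Benjamini-Hochberg adjustment over 14223 genes, threshold 0.05), by group with the replicate number as a block, which leaves 4 residual degrees of freedom. Standard errors are the log2 fold change over the square root of F. The biological coefficient of variation was 4.00%. The rule of the comparison pairs replicates by number. As a check, deviations from the group means were correlated over genes between libraries of different groups: r was 0.126 to 0.361 for pairs that share a number and -0.246 to 0.106 for the rest. Between p21 and p16, r was 0.133, 0.126 and 0.343 for replicates 1, 2 and 3. The match was thus clearest for replicate 3, and for replicates 1 and 2 r was little above the highest value of unlike pairs. Totals of 44455730 to 63152239 counts set the precision, and libraries of a group differed by more than counting error.

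The members, gene lists, motifs and tests were chosen with earlier results of these data known. Named genes are the delivered genes, the 15 largest rises and falls of p21 against p16 and the 10 largest scaled values in each direction among called genes of mean log2 CPM of at least 1 (the first also without overlap between libraries, both without predicted, mitochondrial and histone genes), up to 4 per list by adjusted p, and genes called in opposite directions. The MCM subunits, Pola1, Ccnd1, Cdk4, Cdk6, E2f1, Rb1, Cdkn1c, Pttg1, Ccna2, Cdc20, Top2a, Mki67, Hspb1, Fst, Tgm2, the other genes of the 1.5-fold test and those with promoters shown were named after their values were seen. Coordinates and exon overlaps are from GENCODE M21 on GRCm38, and 23674 of 24062 symbols matched. Alternatives used DESeq2 1.42.0, limma 3.58.1 and the settings given at the end. A single gene is not reported here and was left out of its list after the values were seen. The fit was tested on simulated data. Python 3.11.15 with matplotlib 3.10.9 drew the figures.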

Additional observations from a re-analysis of the deposited data

How the results depend on the processing

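In p21 against p16, 3214 genes were called, 1858 without the replicate block and 25 by glmTreat against 1.5-fold. Leaving out 1 library gave 2064 to 3229, the lowest without p16 replicate 1. Other counts were 3228 with RLE size factors, 3308 with library totals (1301 higher and 2007 lower), 3362 with no filter, 2549 from replicates 1 and 2, 2688 from the p21 and p16 libraries alone, 2797 by DESeq2 and 3295 by limma-voom. No scaling moved the median of all genes by over 0.1 on the log2 scale. On the scaled contrast 266 genes were called, 14 without the replicate block, 446 with no filter, 141 from replicates 1 and 2, and 85 to 443 with 1 library left out. That count was 267 with RLE size factors, 223 with library totals, 263 by DESeq2 and 273 by limma-voom. The causes of these shifts were not tested, except that fits without a library or replicate 3 hold fewer samples. Of named genes, the replicate block decided the call of 45 in p21 against p16 and of 39 on the scaled contrast, while 147 and 10 stayed on the same side of the threshold without it.

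The direction of p21 against p16 turned for Acan, whose two-sided difference did not pass: -0.018 with library totals, -0.001205 with no filter, -0.060 from replicates 1 and 2, -0.00061 from the p21 and p16 libraries alone and -0.088 to 0.081 with 1 library left out. With 1 library left out the values also crossed 0 for Ndnf (-0.11 to 0.0036), Krt19 (-0.035 to 0.052), S100b (-0.19 to 0.51, and -0.12 from replicates 1 and 2), Epor (-0.056 to 0.999) and Alas2 (-0.29 to 0.063), none of which passed the test. With the slope of the S phase list the scaled values of Des (-0.031) and Csf1 (-0.045) turned negative. Depth limits genes of a few CPM.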

Other observations

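Further gene groups held called differences between p21 and p16. Of 27 genes of the TGF-beta and activin response 8 were higher and 1 lower with p21 (11.0% and 11.6% of all genes were), and Tgfb3, a TGF-beta ligand, stood at 389, 395 and 344 CPM in the controls, 583, 588 and 523 CPM with p21 and 477, 467 and 412 CPM with p16 (log2 fold change 0.32 ± 0.028 (SE), adjusted p = 1.0e-08). Of 17 metalloproteinase and inhibitor genes 6 were higher and 3 lower, and the 6 numbered 3 without p21 replicate 1 and 3 without p16 replicate 1. Timp2 and Timp3, tissue inhibitors of metalloproteinases, were at 0.32 and 0.28. Of 20 genes of polycomb complexes and DNA methylation 1 was higher and 6 lower, and without the replicate block none and 3. Ezh2, the methyltransferase of polycomb complex PRC2, stood at 52.0, 47.8 and 48.4 CPM in the controls, 36.0, 36.7 and 35.5 CPM with p21 and 41.7, 41.5 and 40.3 CPM with p16 (log2 fold change -0.19 ± 0.045 (SE), adjusted p = 0.0031), and Dnmt1, which copies DNA methylation at replication, was at -0.22. Of 11 hedgehog pathway genes 4 were lower and none higher: besides Gas1 these included Gli2, an effector of the pathway, at -0.53.

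Ribosomal protein genes shifted little. Of 50, 15 were lower with p21 and none higher, beside 11.6% and 11.0% of all genes, at a median of -0.06. The count of 15 was 3 without the replicate block, 26 with libraries scaled by their totals and between 4 and 26 with 1 library left out. Of 24 immediate early genes 4 were higher and 8 lower, beside 11.0% and 11.6% of all genes, and 2 and 1 without the block. Dusp1, a phosphatase of MAP kinases, was at 0.34 (adjusted p = 9.0e-07).

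Among genes with mean levels of a few CPM, P2rx7, an ATP-gated channel, stood at 1.59, 1.77 and 1.43 CPM in the controls, 1.94, 1.701 and 1.69 CPM with p21 and 2.97, 3.40 and 2.38 CPM with p16 and was lower with p21 (log2 fold change -0.70 ± 0.16 (SE), adjusted p = 0.0024). Gpr35, an orphan receptor in the same direction, stood at 1.62, 1.80 and 2.01 CPM in the controls, 1.79, 1.43 and 2.15 CPM with p21 and 2.12, 2.96 and 4.34 CPM with p16 (log2 fold change -0.78 ± 0.17 (SE), adjusted p = 0.0020), a call lost without p16 replicate 3 (adjusted p = 0.05037).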
